A study of Oryza sativa with 6 samples.

Results

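The families miR169 and miR171 were followed in Kasalath rice, an aus-type cultivar, whose seeds germinated at 35 °C (hot, 3 libraries) or at 25 °C (normal, 3 libraries). A name belonged to them if the digits directly after "mir" were those of miR169 or miR171. That rule took 94 of the 641 names in the small RNA table, 56 for miR169 and 38 for miR171, and it used no measured value.

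Both families act on transcription factor transcripts. In flowering plants miR169 guides cleavage of NF-YA transcripts, which encode the CCAAT-binding subunit of nuclear factor Y. In rice and Arabidopsis this pair is known for its response to drought and other abiotic stress. The miR171 family guides cleavage of GRAS transcripts of the SCARECROW-LIKE6 or HAIRY MERISTEM type, which keep shoot meristem cells undifferentiated. Each miRNA hairpin gives a duplex of a 5p and a 3p arm. In the miR169 family the targeting strand is mostly the 5p arm, and in the miR171 family mostly the 3p arm. Names without an arm suffix do not say which strand was counted.

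All 6 libraries were labelled germinating seeds, 5 days after germination. Of 40 seeds, 5 lay in each dish on moist tissue without medium, and each temperature had 4 dishes. The series' design text calls the libraries biological triplicates, but no label ties dishes to libraries, so p-values measure the spread between these libraries. The table holds miRNAs alone, and the tissue label was not checked against marker transcripts. The library totals recovered from the authors' normalised values were 157488, 240428 and 243859 in hot libraries 1 to 3 and 264112, 250255 and 275549 in normal libraries 1 to 3.

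Many names repeated each other's counts and were treated as the same reads. A read set was defined as the names of a family whose counts were identical, or exact whole multiples, in all 6 libraries, with the smallest row standing for the set. The 56 miR169 names formed 40 read sets and the 38 miR171 names formed 26. Of the miR169 names, 23 lay in 7 sets of more than 1 name, and of the miR171 names 17 lay in 5 such sets. For the rarest names the rule says little: mir171k-3p and mir171k-5p, opposite arms of a hairpin, fell into 1 set because each had a single count, in hot library 3.

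Both families were scarce. Normalised expression is the count divided by the library total and multiplied by 1000000. Summed over read sets, miR169 held 99, 231 and 82 counts in hot libraries 1 to 3, against 26, 217 and 164 in normal libraries 1 to 3. In normalised expression that is 629, 961 and 336 in the hot libraries and 98.4, 867 and 595 in the normal libraries. The ranges of the 2 temperatures overlapped, and normal library 1 was the lowest of all 6. The miR171 sum was 100, 138 and 229 counts in the hot libraries, against 84, 115 and 921 in the normal libraries. In normalised expression it was 635, 574 and 939 in the hot libraries and 318, 460 and 3342 in the normal libraries. By that measure normal library 3 stood far above the other 5, while normal libraries 1 and 2 were below every hot library. With the TMM scaling of the test below, normal library 3 was again far the highest. Normal library 2, at 826 CPM, was there above hot libraries 2 and 3, at 653 and 824 CPM. These sums are not taken as numbers of molecules, because whether rows of different read sets share reads is not known from the table.

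Neither family sum differed between temperatures beyond the spread between libraries. In edgeR's quasi-likelihood test over 31 family sums, with TMM scaling and Benjamini-Hochberg adjustment, miR169 had a log2 fold change (hot over normal) of -0.18 (SE 0.81, adjusted p = 0.861). The miR171 sum had -1.36 (SE 0.80, adjusted p = 0.267). Over all families 29% were called at adjusted p under 0.05, 9 of 31. The miR171 value rested on normal library 3: without it the log2 fold change was 0.12 (SE 0.39, adjusted p = 0.876). In tissue samples such as these, fewer cells that hold a miRNA and less of it per cell cannot be told apart.

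**Figure D1:**
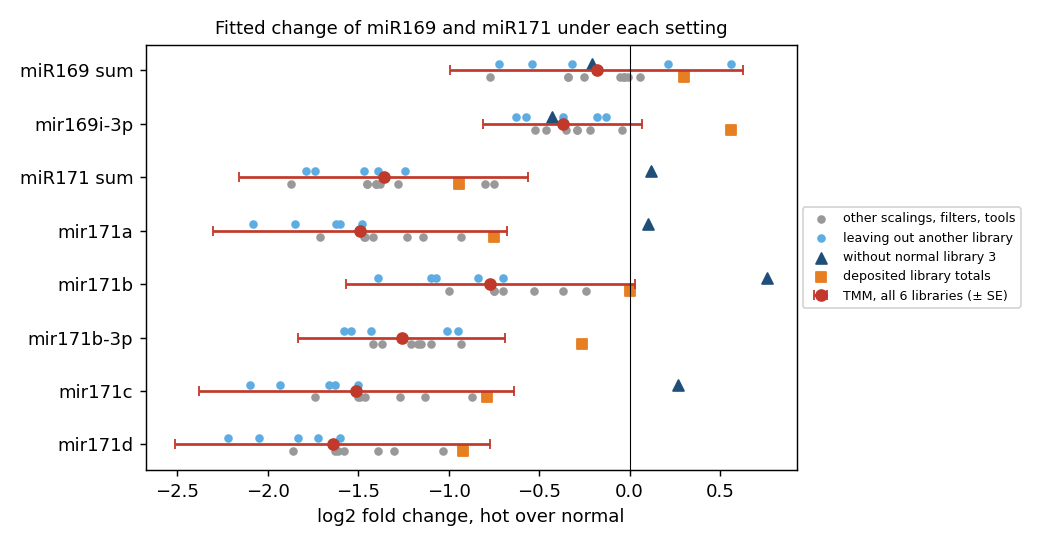
Log2 fold change, hot over normal, of both family sums and the 6 names tested (red circles with SE, TMM scaling, 3 libraries per temperature), beside the values under other settings. Without normal library 3 (triangles) the miR171 sum and mir171a, mir171b and mir171c lie above 0; mir171b-3p and mir171d did not pass the filter there.

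Of the 94 names only 6 had counts high enough for the test over 253 names, 1 of miR169 and 5 of miR171. None was called by edgeR's quasi-likelihood test, at adjusted or unadjusted p under 0.05, and none by DESeq2 or limma-voom, while 22.9% of the 253 names were called in edgeR. With 1 row per read set the same 6 were tested among 166 rows and none was called, against 34.9% of rows called there. The other 88 names are described by their counts. As context, the other conserved families that target transcription factor transcripts (miR156, miR159, miR160, miR164, miR165, miR166, miR167, miR172, miR319, miR396, miR444 and miR529) had 171 tested names, of which 14 rose and 35 fell under TMM, while 57 were called higher and 0 lower with the library totals as the scale. Over all 253 names 18 were called higher and 40 lower under TMM, and 83 higher and 1 lower with the library totals. Without the miR156 names, 15 of all 219 tested names were called higher and 10 lower under TMM. The median log2 fold change of the listed families under TMM was -0.04, beside 0.01 over all 253 names.

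In miR169 the 3p row with the most counts had a different profile over the libraries from the 5p rows. The most abundant name, mir169i-3p, is the strand opposite the usual targeting strand, and it was the only one of the 56 found in all 6 libraries. It had 17, 22 and 22 counts in hot libraries 1 to 3, against 20, 10 and 22 in normal libraries 1 to 3. Its normalised expression was 108, 91.5 and 90.2 in the hot libraries and 75.7, 40.0 and 79.8 in the normal libraries. By that measure every hot library was above every normal library, as was the case for 22.6% of all 641 names.

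Under TMM scaling the order of the temperatures for mir169i-3p turned round. It averaged 79.7 ± 25.4 CPM in the hot libraries and 102 ± 35.6 CPM in the normal libraries (SD, n = 3 each). Its log2 fold change was -0.37 (SE 0.44, edgeR adjusted p = 0.540). With the deposited library totals as the scale the log2 fold change was 0.56 (SE 0.47, edgeR adjusted p = 0.341). The median over all names was 0.99 with the library totals and 0.01 under TMM, so mir169i-3p lay below the median name in both. With 1 row per read set it was -0.24 (SE 0.41) under TMM, beside a median of -0.15. With the library totals it was 0.56 (SE 0.43) there, beside a median of 0.68. No difference from the median is read from these values. From pooled counts over library totals its ratio, hot over normal, was 1.44 (exact binomial 95% interval 0.981 to 2.13). Over column sums, a scaling added after the data were seen, it was 0.652 (0.443 to 0.963), so these pooled ratios depend on the scale. Such intervals cover counting error only.

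**Figure D2:**
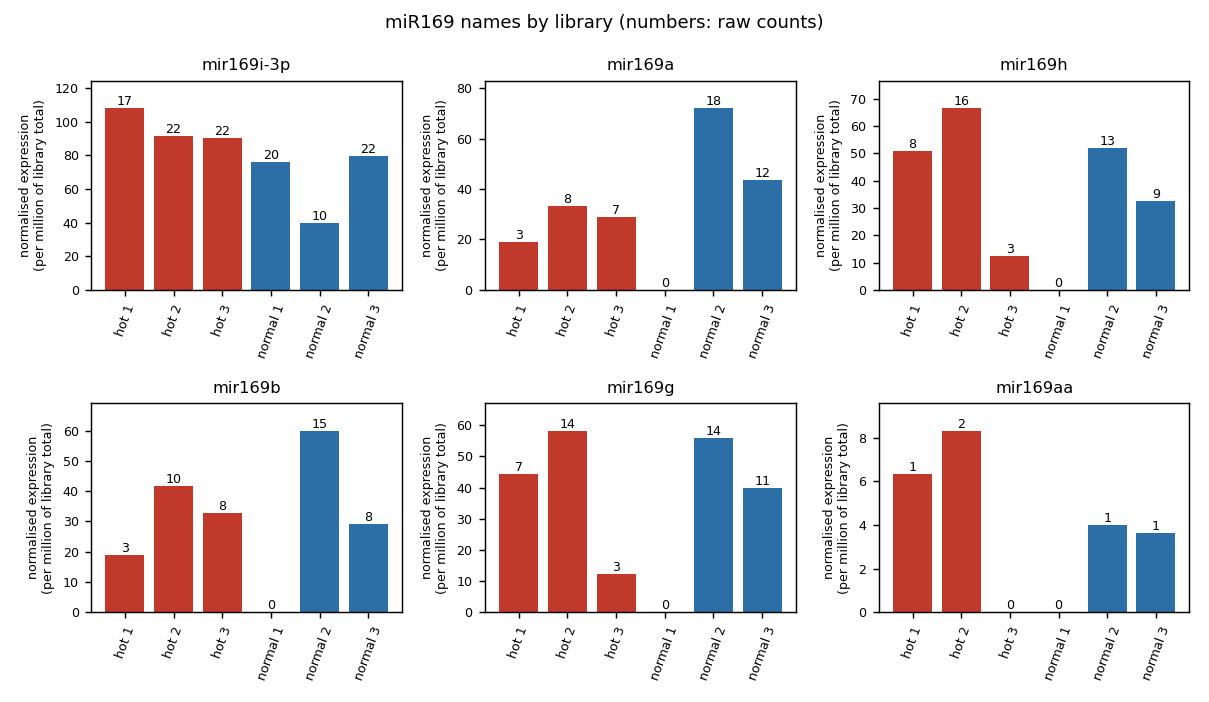
Normalised expression of 6 miR169 names in each library, hot in red and normal in blue, with raw counts above the bars. The name mir169i-3p had 10 to 22 counts in every library, while the other 5 were at 0 in normal library 1.

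All 49 miR169 names with a 5p suffix or none were at 0 in normal library 1. Its library total was the second highest of the 6, but its counts over all names summed to 147986, fewer than in any hot library. Of all 641 names 66.3% had a count in it, the lowest share of the 6 libraries. A count of 0 there allows a normalised expression of up to 11.4 per name (3 counts). The 3p names were present in it: added over read sets, those of 3p names held 19, 35 and 24 counts in hot libraries 1 to 3, against 26, 13 and 27 in normal libraries 1 to 3. Read sets with at least 1 5p name held 10, 24 and 8 counts in the hot libraries, against 0, 25 and 18 in the normal libraries. Sets of unsuffixed names alone held 70, 172 and 50 counts in the hot libraries, against 0, 179 and 119 in the normal libraries. Within the normal group the 3p sum therefore ranged from 13 to 27 counts, while the sum of the unsuffixed sets ranged from 0 to 179. Most of the 3p counts were those of mir169i-3p alone, with 20, 10 and 22 in normal libraries 1 to 3.

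Among the unsuffixed names the highest were mir169g and mir169h, with 49 summed counts each. In rice, miR169g is known as a drought-responsive locus. The name mir169g had 7, 14 and 3 counts in the hot libraries, against 0, 14 and 11 in the normal libraries. The name mir169h had 8, 16 and 3 counts in the hot libraries, against 0, 13 and 9 in the normal libraries. In both, hot libraries 1 and 2 and normal libraries 2 and 3 were high, and hot library 3 and normal library 1 were low, so the temperatures overlapped. The pooled ratio of mir169h, hot over normal, was 1.51 over library totals (exact binomial 95% interval 0.828 to 2.78) and 0.682 over column sums (0.374 to 1.26).

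A few names kept more counts in hot library 3. The name mir169a had 3, 8 and 7 counts in the hot libraries, against 0, 18 and 12 in the normal libraries, and mir169b had 3, 10 and 8 in the hot libraries, against 0, 15 and 8 in the normal libraries. For mir169c the counts were 3, 8 and 6 in the hot libraries and 0, 15 and 8 in the normal libraries. In all 3 names normal library 2 was the highest library and the hot libraries lay between it and the empty normal library 1. The pooled ratio of mir169a was 0.738 over library totals (exact binomial 95% interval 0.388 to 1.37) and 0.333 over column sums (0.175 to 0.618). The remaining miR169 sets of 20 or more summed counts, mir169, mir169d, mir169e, mir169f, mir169i, mir169j, mir169k, mir169l and mir169m, had 21 to 40 counts each and were also at 0 in normal library 1.

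The rest of the family was close to the limit of detection. Of the 56 names, 24 had under 10 summed counts, the median was 10 and 8 names were seen in only 1 or 2 libraries. The largest set joined 10 names, among them mir169aa, mir169ab, mir169ac, mir169y and mir169m-5p. Its smallest row, named here after its values were seen, held 1, 2 and 0 counts in the hot libraries, against 0, 1 and 1 in the normal libraries. Hot library 2 had exactly 2 times the count of hot library 1 in 29 of the 42 5p or unsuffixed names with a count in both, 69% of them. Outside miR169 that held for 10 of 374 names of any abundance, 2.67%, and within miR171 for 2 of 13, 15.4%. The 42 miR169 names had 1 to 8 counts in hot library 1. Names of 1 read set repeat the same reads, so the 42 are not separate observations. The library totals stood at 240428 in hot library 2 and 157488 in hot library 1. Why these rows repeat 1 proportion was not tested. Besides mir169i-3p, the normalised expression of mir169e-3p was higher in all hot libraries than in any normal library. That order was found in 22.6% of all names. The name mir169e-3p had 1, 3 and 1 counts in the hot libraries, against 1, 0 and 0 in the normal libraries. Hot libraries 1 and 3 thus differed from normal library 1 by the library totals alone. In mir169c-3p the hot libraries were all below the normal ones, an order found in 2.18% of all names. It had 1, 1 and 0 counts in the hot libraries, against 2, 3 and 5 in the normal libraries. These names rest on 6 and 12 summed counts.

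In miR171 normal library 3 stood apart. It had the highest normalised expression of the 6 libraries in 27 of 38 miR171 names, 71.1% of them, against 85 of all 641 names (13.3%). The median miR171 name had 53.6% of its normalised expression, summed over the 6 libraries, in that library, against 13.7% for the median of all names and 16.3% for the median miR169 name. Of the 38 names, 17 shared a read set with another miR171 name and so repeat the same reads. Rows of different read sets could also be written as sums of shared patterns, as described below. The 38 names are therefore not separate observations, and the 71.1% and 53.6% were not worked out over read sets. In normalised expression no miR171 name had all hot libraries above or all below the normal ones. Over all 641 names 22.6% had them all above and 2.18% all below.

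The most abundant miR171 name was mir171b, with 16, 36 and 63 counts in hot libraries 1 to 3, against 7, 15 and 117 in normal libraries 1 to 3. Its normalised expression was 102, 150 and 258 in the hot libraries and 26.5, 60.0 and 425 in the normal libraries. By that measure the hot libraries lay between normal libraries 1 and 2, which were lower, and normal library 3, which was higher. Under TMM scaling normal library 2, at 105 CPM, was slightly above hot library 1, at 102 CPM. The name mir171b averaged 130 ± 37.1 CPM in the hot libraries and 220 ± 249 CPM in the normal libraries (SD, n = 3 each). Its log2 fold change was -0.77 (SE 0.80, edgeR adjusted p = 0.494). Without normal library 3 the sign turned, to 0.76 (SE 0.48, edgeR adjusted p = 0.264), and with the library totals the value was 0.00.

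In the names mir171a, mir171c and mir171d normal library 3 was also far above normal libraries 1 and 2. The name mir171a had 14, 20 and 35 counts in the hot libraries, against 9, 13 and 123 in the normal libraries. It averaged 83.0 ± 16.6 CPM in the hot and 228 ± 262 CPM in the normal libraries (SD, n = 3 each). Its log2 fold change was -1.49 (SE 0.81, edgeR adjusted p = 0.180). The SD of the normal libraries exceeded their mean. For mir171c the counts were 12, 16 and 28 in the hot libraries and 8, 8 and 106 in the normal libraries, with a log2 fold change of -1.51 (edgeR adjusted p = 0.198). For mir171d they were 10, 12 and 21 in the hot libraries and 7, 7 and 89 in the normal libraries, with -1.64 (edgeR adjusted p = 0.168). Without normal library 3, mir171a had 0.10 and mir171c 0.27, and mir171d did not pass the filter.

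The name mir171b-3p had a different profile. It had 2, 14 and 15 counts in the hot libraries, against 8, 16 and 19 in the normal libraries, so normal library 3 was only slightly above normal library 2. Hot library 1 was the lowest of the 6, and the others ranged from 30.3 to 69.0 in normalised expression. It averaged 32.9 ± 17.5 CPM in the hot and 83.4 ± 28.1 CPM in the normal libraries (SD, n = 3 each). Its log2 fold change was -1.26 (SE 0.57, edgeR adjusted p = 0.118). Of the 6 tested names it had the lowest p. Over library totals the pooled ratio, hot over normal, was 0.887 (exact binomial 95% interval 0.541 to 1.44), and over column sums it was 0.401 (0.244 to 0.651).

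The sets mir171c-3p, mir171d-3p, mir171e, mir171f, mir171i and mir171i-3p had 33 to 117 summed counts each. In all 6 of these sets normal library 3 was the highest library. The most abundant of the 6, mir171f, had 8, 8 and 15 counts in the hot libraries, against 6, 6 and 74 in the normal libraries.

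**Figure D3:**
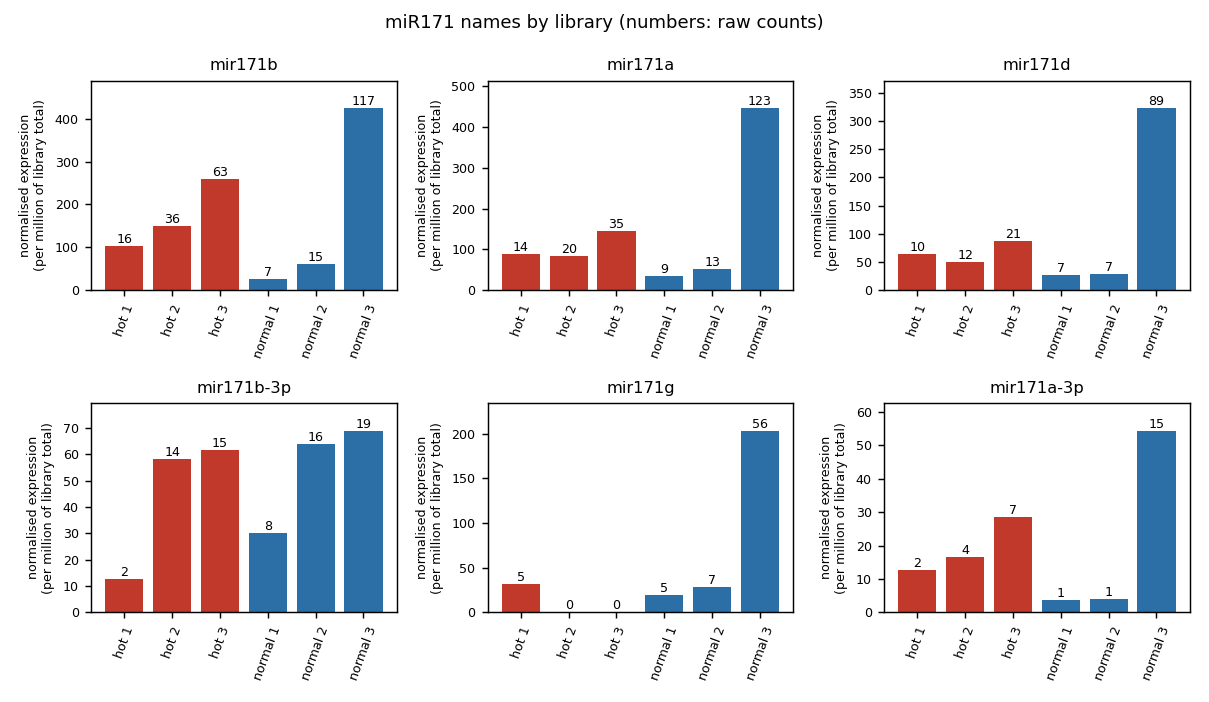
Normalised expression of 6 miR171 names in each library, hot in red and normal in blue, with raw counts above the bars. Normal library 3 is the highest bar in every panel, by a small margin for mir171b-3p, and mir171g is at 0 in hot libraries 2 and 3.

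Several miR171 names were nearly confined to the normal libraries and hot library 1. The name mir171g had 5, 0 and 0 counts in the hot libraries, against 5, 7 and 56 in the normal libraries. The name mir171h had 3, 0 and 2 counts in the hot libraries, against 3, 9 and 36 in the normal libraries. The name mir171 without a letter had 3, 0 and 0 in the hot libraries, against 3, 5 and 34 in the normal libraries. In all 3 of these names hot library 1 had the same count as normal library 1, and hot library 2 was at 0. In normalised expression hot library 1 was above normal library 1, at 31.75 against 18.95 for mir171g. For mir171h and mir171 it was 19.05 against 11.37. None of the 3 names passed the filter with all 6 libraries. Without hot library 1, mir171g and mir171h passed it and were called lower by edgeR (adjusted p = 0.0380 and 0.0413), in a setting where 43.5% of all names were called. Both passed the filter there through the normal libraries alone, and the library left out was the only hot one with counts of mir171g, so nothing is read from these calls. With no filter on low counts, 12 of the 38 miR171 names had an unadjusted p under 0.05 in edgeR and none an adjusted one, beside 21.5% of all names at that unadjusted p. With 1 row per read set it was 7 of 26, beside 97 of all 413 read sets (23.5%). The smallest row of this kind, mir171-3p, named after its values were seen, stood for 6 names, also mir171e-3p, mir171g-3p, mir171j-3p, mir171k and mir171u. It held 1, 0 and 0 counts in the hot libraries, against 1, 1 and 11 in the normal libraries. Of its 14 counts 11 were thus in normal library 3. The pooled ratio, hot over normal, was 0.0947 with an exact binomial 95% interval of 0.00223 to 0.630, and over column sums it was 0.0427 (0.00101 to 0.285). Both leave out the spread between libraries.

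The larger miR171 rows could be taken apart into a few small recurring patterns, a description made after the counts were seen. Pattern p is the row of mir171-3p. Pattern q is the row of mir171a-3p (2, 4 and 7 counts in the hot libraries, against 1, 1 and 15 in the normal libraries) less pattern p. Pattern q thus held 1, 4 and 7 counts in the hot libraries, against 0, 0 and 4 in the normal libraries. A further pair of small patterns were pattern r, the row of mir171l-3p (0 in all hot libraries, against 0, 2 and 1 in the normal libraries), and pattern t, the row of mir171o (0, 1 and 0 in the hot libraries, against 1, 0 and 0 in the normal libraries). Of the 38 names, 13 define one of these patterns or lie in its read set and match by construction. Whole multiples of p, q, r and t left nothing over in 11 of the other 25 rows, and in 7 of the 14 of these with 20 or more counts. Up to 4 multiples were free for 6 values, the patterns came from the same table, and no test of coincidence was made.

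The row of mir171d equalled 7 times p plus 3 times q in every library. That of mir171b equalled 7 times p, 9 times q and 4 times r. The rows of mir171a (9 p, 5 q and 2 r) and mir171c (8 p and 4 q) left over 2 counts each, both in normal library 3. Over the whole family 32 of 1717 entered counts were left over, 1.86%. That share includes the 13 names that match by construction, and the multiples were chosen to leave the fewest counts over. It is therefore no measure of how well the patterns fit. The row of mir171b-3p held no p, 2 times q, 8 times r and 6 times t, with 6 of its 74 counts left over. All 254 counts of mir171b, and all but 2 of the 214 of mir171a, could thus be written as multiples of p, q and r, which together held 13 counts in the hot libraries and 20 in the normal libraries.

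The summed counts of p and q leaned opposite ways, but both patterns were picked with these counts known. Pattern p had 1 count in the hot libraries and 13 in the normal libraries, 11 of them in normal library 3. In normal libraries 1 and 2 it had 1 count each. Pattern q had 12 counts in the hot libraries and 4 in the normal libraries, all 4 in normal library 3. Over library totals the ratio of q, hot over normal, was 3.69 (exact binomial 95% interval 1.12 to 15.7). Over column sums it was 1.67 (0.505 to 7.09), an interval that includes 1. In normalised expression, q was at 6.35, 16.6 and 28.7 in the hot libraries and at 0, 0 and 14.5 in the normal libraries, so normal library 3 lay within the range of the hot libraries. Among the larger rows mir171b had the most multiples of q, and mir171g had none.

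**Figure D4:**
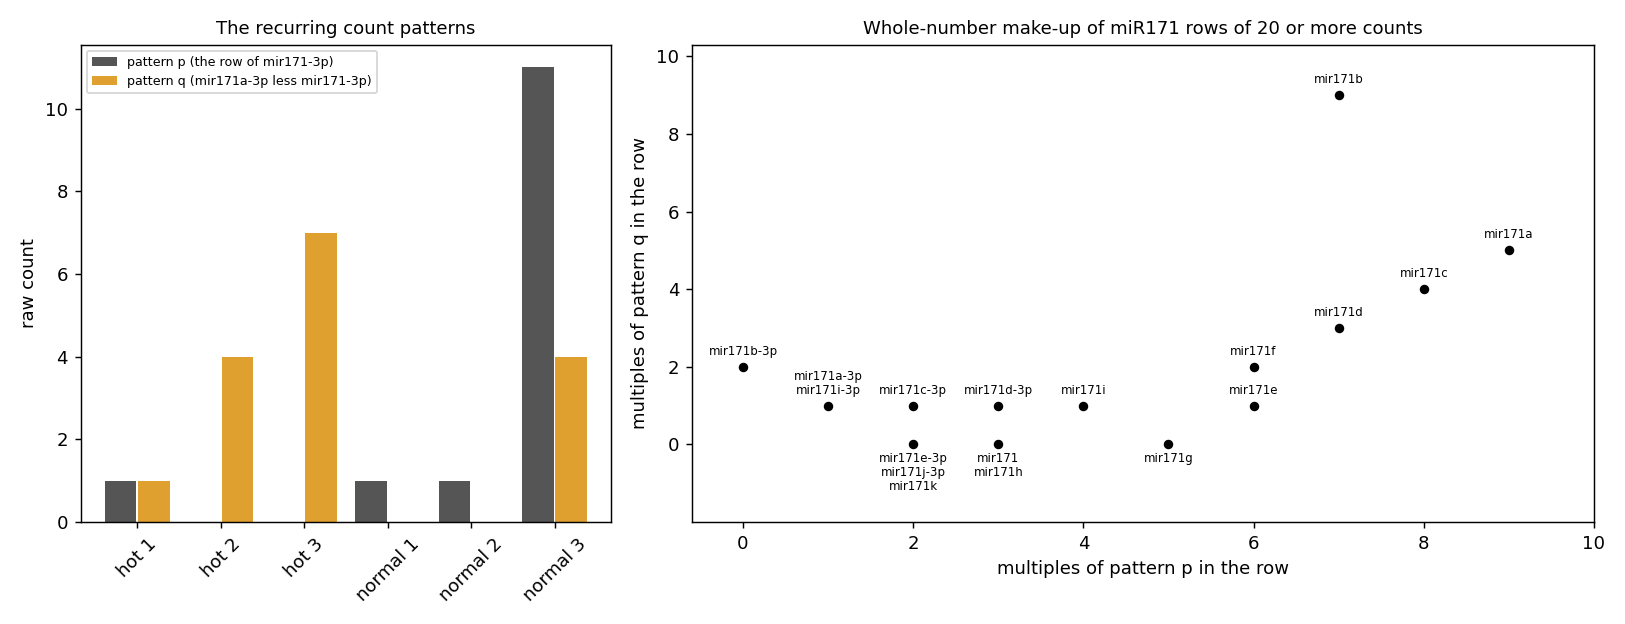
Left, raw counts of patterns p and q in each library, hot libraries first. Right, the whole multiples of p and q found in each miR171 row of 20 or more counts: mir171b has 9 of q, mir171a has 5 of q and 9 of p, and mir171g has 5 of p and none of q.

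Detection was compared over read sets. For miR169, 33, 37 and 26 of 40 sets had a count in hot libraries 1 to 3, against 5, 35 and 35 in normal libraries 1 to 3. The means were 32 and 25 (exact two-sided permutation test, p = 0.8). For miR171, 19, 17 and 17 of 26 sets had a count in the hot libraries, against 23, 21 and 24 in the normal libraries. The groups did not overlap, with means of 17.7 and 22.7 (exact two-sided permutation test, p = 0.1, the smallest p that 3 against 3 libraries allow). Since miR171 rows could be written as sums of shared patterns, its read sets were not taken as separate observations. Thinned to the smallest library total, 19, 15.4 and 15.7 miR171 sets were expected in the hot libraries and 19.1, 18.9 and 22.6 in the normal libraries. Normal library 2 then fell just below hot library 1, and the exact two-sided permutation p was 0.2. Over all 641 names, 71.6%, 75.7% and 77.1% had a count in the hot libraries, against 66.3%, 70.8% and 81.4% in the normal libraries.

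**Figure D5:**
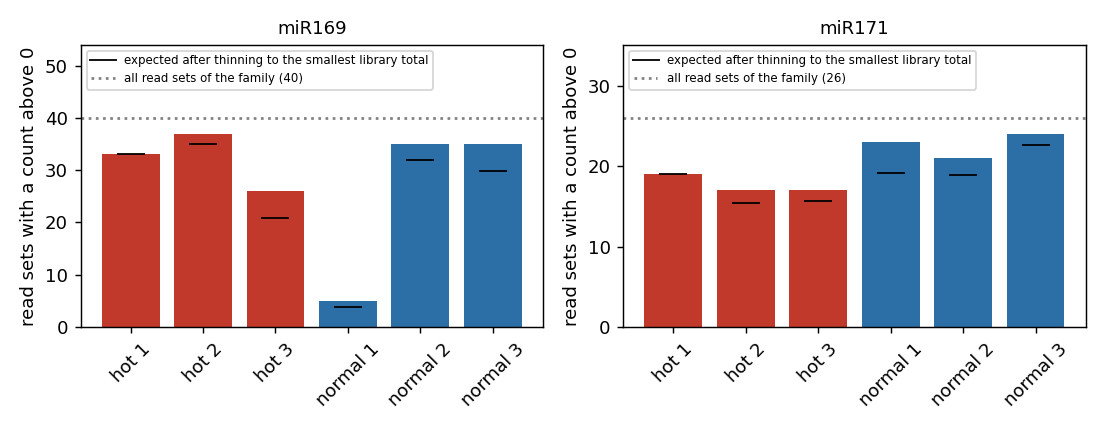
Number of read sets with a count above 0 in each library (bars, hot in red and normal in blue), with the number expected after thinning to the smallest library total (black marks) and the size of the family (dotted line). Normal library 1 detected 5 of 40 miR169 sets and 23 of 26 miR171 sets.

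Among the other 30 family sums that passed the filter, the profiles nearest to miR169 over the 6 libraries were those of miR164, miR1863 and miR167. Their root mean square differences in centred log2 CPM were 0.65, 0.80 and 0.93, beside a median of 1.21 over the 30. For miR171 the nearest were miR167, miR159 and miR319 at 0.93, 0.95 and 0.98, beside a median of 1.14, so no family came close to its profile.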

How the data were processed

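Per the labels' protocols, RNA came from a mirVana kit extraction, and libraries from a NEBNext small RNA kit with size selection on beads; the series' design text names a MiSeq. The deposited table gives raw counts and a normalised signal per miRNA name and library, per the file headers. The authors' matching tool, miRNA database and genome build are not stated in the labels or headers. Each deposited normalised value was its count over 1 total per library, times 1000000 (within 1% in 100% of rows with a count), and was used to recover that total from rows with a count above 20.

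The main test was edgeR's quasi-likelihood test (version 4.0.16, R 4.3.3), with filterByExpr, TMM and temperature as the single term for all 6 libraries, over all names, over read sets and over family sums (1 row per read set). SE is the log2 fold change over the square root of F. CPM is relative to the TMM-scaled column sum. Alternatives used DESeq2 1.42.0, limma 3.58.1 and other scalings, filters and libraries. Exact tests and intervals used scipy 1.17.1. The scripts were tested on simulated counts. Libraries of a temperature differed by more than counting error (chi-square per degree of freedom 5.13 to 23.2), so none was a copy. The labels name no batch.

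Names described were those tested, those called and the read sets of 20 or more summed counts; any other name was picked with its values known. The members, lists and tests were chosen with earlier results of these data known. No sequence is shown.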

Additional observations from a re-analysis of the deposited data

How the results depend on the processing

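No miR169 name was called in any setting run, and no miR171 name except without hot library 1, where 2 of 7 were (0 to 2 over the libraries left out, names and read sets alike), beside 120 of 276 names and 74 of 179 read sets. Values near 0 changed sign. The miR169 sum was 0.30 with the deposited library totals, 0.06 in limma-voom and -0.72 to 0.56 when 1 library was left out, and its detection difference (7 sets) was -1.33 at a count of at least 5 and -3 to 12 when 1 library was left out. The name mir169i-3p was 0.56 with the library totals among names and read sets, and -0.57 to 0.26 among read sets when 1 library was left out. The miR171 sum ran from -1.79 to 0.12, with the positive value without normal library 3. With 1 library left out, mir171a ran from -2.08 to 0.10, mir171b from -1.39 to 0.76 and mir171c from -2.10 to 0.27 among names, and from -1.81 to 0.34, -1.08 to 1.01 and -1.89 to 0.50 among read sets, each positive without normal library 3 alone; mir171b was 0.00 with the library totals in both. The miR171 detection difference (-5) ran from -5.83 to -4.33.

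Over all names 58 were called, 18 higher and 40 lower; 31 with DESeq2 size factors (15 and 16), 104 in the DESeq2 test, 25 without the miR156 names and 26 to 120 when 1 library was left out, while the library totals gave 83 higher and 1 lower. Of read sets 58 were called, 19 without the miR156 names and 20 to 74 without 1 library. Of families 9 were called, 5 with DESeq2 size factors, 4 without a filter and 2 to 10 without 1 library. The cause of these moves was not tested. With the replicate number as a block 63 names were called, the miR171 sum was -0.75 and no member was called; same-numbered libraries did not deviate together (correlations 0.498, -0.319 and 0.0279), and hot library 2 correlated best with normal library 3, so the numbers were not taken as pairs. Depth limits most members, since 88 of 94 names were too rare to test.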
